A study of Homo sapiens with 12 samples.

Results

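The homologous recombination and Fanconi anemia genes are 39 human genes whose products mend broken, stalled or crosslinked DNA. They were selected by gene symbol from the 43828 gene places of the 12 count tables, and all 39 stood in every table. The libraries came from CCRF-CEM, a leukemia line of human T lymphoblasts, grown in RPMI1640 medium with serum. They form 4 groups of 3 libraries. The first group is wild-type parent cells given 100 nM camptothecin for 4 h, and the second is wild-type parent cells given DMSO, the solvent. The third is SLFN11 knockout cells with the same camptothecin treatment, and the fourth is SLFN11 knockout cells with DMSO. The knockout is given in the labels by its genotype only, with nothing on how it was made or on its clonality. It is not stated either whether the replicates grew as separate cultures, so the p-values below measure the spread between these libraries, and that spread may be technical.

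Homologous recombination copies the sequence of an intact sister chromatid into a damaged one. Nucleases first trim the broken end, mediator proteins such as BRCA2 then prepare the exposed strand for pairing with the intact copy, and helicases and structure-specific nucleases later take the joined molecules apart. The Fanconi anemia pathway uses a multi-subunit ubiquitin ligase, the core complex, to tag the FANCD2 and FANCI proteins at stalled forks and crosslinks, and it hands the damage on to nucleases and to recombination. Camptothecin traps topoisomerase I on DNA, and replication forks that run into the trapped enzyme break, which is the kind of lesion these genes act on. SLFN11 encodes a nuclear protein that makes cancer cells more sensitive to such drugs.

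Exon reads per library ran between 42439957 and 63606344 in 11 libraries, and parent control replicate 1 had 135592046. In the labels the name of that library follows another pattern than the other names, for a reason not given. It also stood apart from its group, since its counts against those of the other parent controls gave a chi-square of 193.4 and 152.8 per gene compared. The other 10 pairs of replicates gave 4.982 to 18.77. Among the 38 members tested on exon reads parent control replicate 1 was the highest of all 12 libraries in 15 and the lowest in 11, and values without it are given beside the results it moved most. Introns held 26.31% to 33.55% of the reads over genes, the lowest share in parent control replicate 1 and the highest in knockout camptothecin replicate 3. SLFN11 RNA was lower in DMSO-treated knockout cells, at 86.92 ± 1.58 CPM (reads of a gene relative to the TMM-adjusted library total), against 112.3 ± 4.93 CPM in DMSO-treated parent cells (SD, n = 3 libraries per group, log2 difference -0.37, edgeR adjusted p = 0.000133), and a count over the whole gene checks the genotype label only in part. All 16 T lymphoblast markers were expressed above 1 CPM. Of the markers of other blood cells 2 of 14 were above 1 CPM (CD79A and CD79B), and of the fibroblast and epithelial markers 1 of 8 was (EPCAM, 7.455 and 6.759 CPM in camptothecin-treated and DMSO-treated knockout cells, against 1.29 and 1.298 CPM in the parent groups).

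Counted per kilobase of exon, a scale on which genes can be set against each other, the members ran over a wide range of levels. In DMSO-treated parent cells UBE2T, the ubiquitin-conjugating enzyme of the Fanconi anemia pathway, stood highest at 56.7 ± 4.81 CPM per kb (SD, n = 3). FANCI followed at 36.9 ± 0.95, the helicase gene RECQL at 25.9 ± 1.29 and FANCG at 24.6 ± 0.505 CPM per kb. At the low end were SLX4 at 2.81 ± 0.126 and FANCC at 2.59 ± 0.248 CPM per kb, while BRCA1 stood at 15.3 ± 2.09 and BRCA2 at 9.92 ± 0.794 CPM per kb. RECQL and FANCG differed by less than the sum of their SDs, as did SLX4 and FANCC, so the order within these pairs is not resolved. RMI2, which with RMI1 and BLM takes apart joined DNA molecules, was last. It had 0 to 14 exon reads per library and was not tested on exon reads, and FANCF, a gene without introns, was not tested on intron reads. Each of these 2 read types therefore gives a test for 38 members.

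In parent cells camptothecin moved the members in both directions, by small steps. On exon reads 12 of the 38 tested members rose and 7 fell at an adjusted p below 0.05 (edgeR quasi-likelihood test, Benjamini-Hochberg over all 23546 genes), which is 31.6% higher and 18.4% lower. Among all genes tested 33.9% were called, 16.8% higher and 17.1% lower. All 38 members averaged more than 10 CPM, and among the genes at that level 54.5% were called, 25.1% higher and 29.4% lower, so the members' share of calls was near that of genes read as often. The median log2 change of the members was 0.05, and that of all genes tested was 0.01. The risers were EXO1, XRCC3, FANCA, RAD51D, FANCE, PALB2, FAN1, RAD52, RAD54L, BRCA2, FANCG and MUS81, with log2 changes from 0.56 down to 0.27. The 7 that fell were RAD50, SLX4, FANCC, WRN, FANCI, RAD18 and FANCD2, from -0.49 to -0.21. Scaled by library size alone, which moved the median of all genes to 0.14, FANCC, WRN, FANCI, RAD18 and FANCD2 were no longer called. Without parent control replicate 1 all 19 calls remained with the same sign, and XRCC2, RAD54B and FANCM were called higher as well, at 0.44, 0.19 and 0.19 (edgeR adjusted p = 2.52e-08, 0.0414 and 0.00689). In RNA from bulk culture a change in the mix of cells, for instance across the cell cycle, and a change in RNA per cell cannot be told apart.

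**Figure D1:**
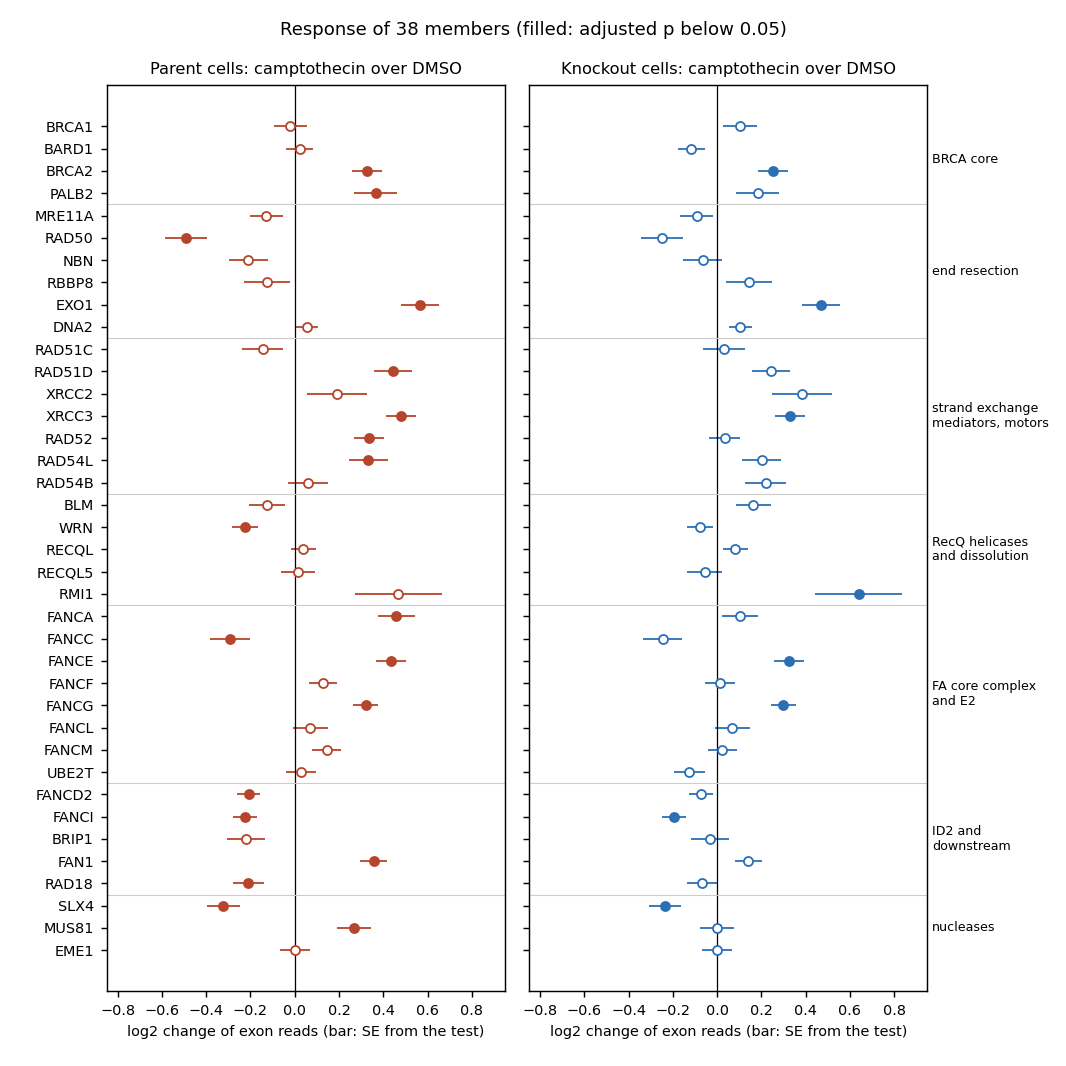
Log2 change of exon reads under camptothecin against DMSO (x axis) for the 38 members tested (rows, ordered by role), in parent cells on the left and SLFN11 knockout cells on the right. Bars are the SE derived from the test and filled points have an adjusted p below 0.05. In parent cells 12 filled points lie right of 0 and 7 left of it, and in knockout cells 6 and 2.

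The end resection genes held the largest rise and the largest fall of the members in parent cells. EXO1, an exonuclease that trims broken ends over long stretches (hg19 chromosome 1, 242011269 to 242058450), had 128, 129 and 126 CPM in camptothecin-treated parent libraries, against 103, 77.3 and 77.9 CPM in DMSO-treated parent libraries. All treated libraries lay above all controls, and parent control replicate 1 was the highest of the controls. Its log2 change was 0.56 ± 0.09 (SE, edgeR adjusted p = 6.77e-05), and the alternatives tried gave 0.49 to 0.72. RAD50, a subunit of the MRE11-RAD50-NBN complex that senses broken ends (chromosome 5, 131891711 to 131980313), had 45.7, 46.8 and 46.1 CPM under camptothecin, against 76.0, 61.3 and 57.3 CPM in controls. The treated libraries were all lower and close together, whereas the controls were spread and replicate 1 was again the highest. RAD50 fell by 0.49 on the log2 scale (SE 0.10, edgeR adjusted p = 0.000627), and its call held in each alternative, between -0.58 and -0.36. Only 59.7% of RAD50's exon bases are free of other genes, and the unique reads gave -0.49. The partners of RAD50 did not pass the test, with -0.13 for MRE11A and -0.21 for NBN (adjusted p = 0.207 and 0.0761). RBBP8, which encodes the resection starter CtIP, and DNA2, a helicase-nuclease, had -0.13 and 0.06 and were not called.

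Of the BRCA core, BRCA2 and PALB2 rose in parent cells and BRCA1 and BARD1 were not called. BRCA1, a tumour suppressor that acts with BARD1 as a ubiquitin ligase (chromosome 17, 41196312 to 41277500), had 123, 124 and 119 CPM under camptothecin, against 143, 115 and 113 CPM in controls. The treated values lay between the control values, and the log2 change was -0.02 with a 95% interval of -0.18 to 0.14 (edgeR adjusted p = 0.877). Without parent control replicate 1 it was 0.10 and again not called (adjusted p = 0.0559). BRCA2, the central mediator of strand exchange (chromosome 13, 32889611 to 32973805), had 135, 144 and 143 CPM with camptothecin, against 122, 107 and 106 CPM without. The groups did not overlap, and the rise was 0.33 ± 0.07 (SE, edgeR adjusted p = 0.00119). PALB2, the bridge between BRCA1 and BRCA2 (chromosome 16, 23614488 to 23652631), had 23.1, 26.0 and 25.9 CPM with the drug, against 22.4, 17.7 and 17.9 CPM with DMSO. Its groups did not overlap but came close, since parent control replicate 1 nearly reached the lowest treated library, and the rise was 0.37 ± 0.10 (SE, adjusted p = 0.00675). BARD1 stood at 96.7 ± 4.13 CPM in treated parent cells, against 95.2 ± 6 CPM in controls (SD, n = 3).

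Among the strand exchange mediators and motor proteins 4 of 7 rose in parent cells and none fell. XRCC3, a mediator of strand exchange (chromosome 14, 104163946 to 104181841), had 126, 122 and 120.0 CPM under camptothecin, against 79.3, 92.5 and 91.8 CPM in controls. No control reached the treated libraries, and the log2 change was 0.48 ± 0.07 (SE, edgeR adjusted p = 2.82e-05). RAD51D, another mediator (chromosome 17, 33426811 to 33448541), had 42.21, 42.01 and 41.6 CPM treated, against 26.5, 32.6 and 33.6 CPM in controls, with a change of 0.44 ± 0.09 (SE, adjusted p = 0.000636). Here the treated libraries hardly differed from each other and replicate 1 was the lowest control. Another gene overlaps nearly all exons of RAD51D (0.9% of its exon bases are unique), and since the counting gives no strand, its reads and those of that neighbour cannot be told apart. The annealing protein RAD52 rose by 0.34 on the log2 scale (28.96 ± 0.353 CPM treated, against 22.98 ± 1.39 CPM in controls), and the motor protein RAD54L by 0.33 (58.02 ± 2.17 CPM treated, against 46.18 ± 5.64 CPM in controls). Counted over the whole gene, introns included, RAD52's change was 0.14 and was no longer called (adjusted p = 0.0803). For RAD54L and XRCC3 less than the full exon span is unique to the gene (46.9% and 48.8%), and the unique reads kept both calls, at 0.25 and 0.46. XRCC2 was one of the members in which parent control replicate 1 lay far from the other controls. Its levels were 82.3, 83.5 and 79.1 CPM in treated libraries, against 93.5, 59.0 and 61.4 CPM in controls, a change of 0.19 that was not called (adjusted p = 0.316). Without that library XRCC2 was called, at 0.44 (edgeR adjusted p = 2.52e-08).

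Of the 8 genes of the Fanconi anemia core complex and its conjugating enzyme, 3 rose and 1 fell in parent cells (37.5% and 12.5%). Among all genes above 10 CPM 25.1% rose and 29.4% fell. FANCA, a subunit of the core complex (chromosome 16, 89803957 to 89883065), had 129.6, 128 and 132 CPM in camptothecin-treated parent libraries, against 78.9, 104 and 99.9 CPM in DMSO libraries. The treated libraries stood above all controls, and the rise was 0.46 ± 0.08 (SE, edgeR adjusted p = 3e-04). FANCE, which joins the core complex to FANCD2 (chromosome 6, 35420138 to 35434880), had 23.5, 23.3 and 24.1 CPM treated, against 16.9, 17.7 and 17.9 CPM in controls. Both groups were tight and far apart, with a change of 0.43 ± 0.07 (SE, adjusted p = 9.89e-05). FANCG rose too, to 110.6 ± 2.23 CPM, against 88.63 ± 1.82 CPM in controls (0.32 ± 0.06 SE, adjusted p = 0.000263). FANCC, a core subunit that partners with FANCE (chromosome 9, 97861336 to 98079991), went the other way, with 14.1, 14.8 and 15.6 CPM treated, against 16.2, 19 and 19.4 CPM in controls. The groups lay just apart, and the fall of 0.29 on the log2 scale (SE 0.09, adjusted p = 0.0173) is fragile. It lost its call without parent control replicate 2 or 3 or parent camptothecin replicate 1 or 2, at adjusted p between 0.0535 and 0.0789. Counted over the whole gene, introns included, FANCC was not called either (adjusted p = 0.392). FANCF, FANCL, FANCM and UBE2T had 0.13, 0.07, 0.14 and 0.03 and were not called.

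RNA of FANCD2 and FANCI, whose proteins the core complex tags, was lower in treated parent cells. Of the 3 other members grouped with them here, RAD18 was lower, FAN1 higher and BRIP1 not called. FANCD2 (chromosome 3, 10068098 to 10143614) had 156, 157 and 154 CPM under camptothecin, against 179, 179 and 181 CPM in DMSO controls, among which replicate 1 did not stand out. These groups were separated by far more than their spread, and FANCD2 fell by 0.21 on the log2 scale (SE 0.05, edgeR adjusted p = 0.00548). FANCI (chromosome 15, 89787180 to 89860492) had 244, 233 and 241 CPM treated, against 287, 274 and 276 CPM in controls, again without overlap, and fell by 0.22 (SE 0.05, adjusted p = 0.00414). RAD18, a ubiquitin ligase of damage tolerance (chromosome 3, 8817088 to 9005457), had 47.7, 46.0 and 46.0 CPM treated, against 57.6, 50.8 and 52.97 CPM in controls, a change of -0.21 ± 0.07 (SE, adjusted p = 0.0245). It lost its call without parent camptothecin replicate 2 or 3 (adjusted p = 0.0867 and 0.0809), and over the whole gene, introns included, the value turned to 0.03. The helicase gene BRIP1 had -0.22 and missed the threshold (adjusted p = 0.0527). FAN1, a nuclease that binds tagged FANCD2, rose to 65.08 ± 0.792 CPM, against 50.85 ± 3.52 CPM in controls (0.36 ± 0.06 SE, adjusted p = 0.000197).

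Of the 5 RecQ and dissolution genes tested WRN fell and none rose, and of the 3 nuclease genes SLX4 fell and MUS81 rose. WRN had 43.9, 44.5 and 45.4 CPM in treated parent libraries, against 52.01, 53.24 and 51.22 CPM in controls, and fell by 0.23 on the log2 scale (SE 0.06, edgeR adjusted p = 0.00726). The groups were clearly apart, with parent control replicate 1 in the middle of its group. Counted over the whole gene the change of WRN was -0.10 and was not called (adjusted p = 0.177). BLM, RECQL and RECQL5 had -0.13, 0.04 and 0.01, and RMI1 had 0.47 with a wide error (SE 0.20, adjusted p = 0.0922), none of them called. SLX4, the scaffold that holds structure-specific nucleases (chromosome 16, 3631182 to 3661599), had 19.8, 19.3 and 18.95 CPM treated, against 25.4, 23.7 and 23.4 CPM in controls. Every treated library was below every control, and the change was -0.32 ± 0.07 (SE, adjusted p = 0.00255). Of the nuclease pair MUS81 and EME1, MUS81 rose by 0.27 (59.84 ± 3 CPM treated, against 49.7 ± 3.41 CPM in controls, adjusted p = 0.012), although not without parent camptothecin replicate 1 (adjusted p = 0.0651). EME1 had 0.00, but 1.8% of its exon bases are unique and its reads cannot be told from those of an overlapping gene.

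**Figure D2:**
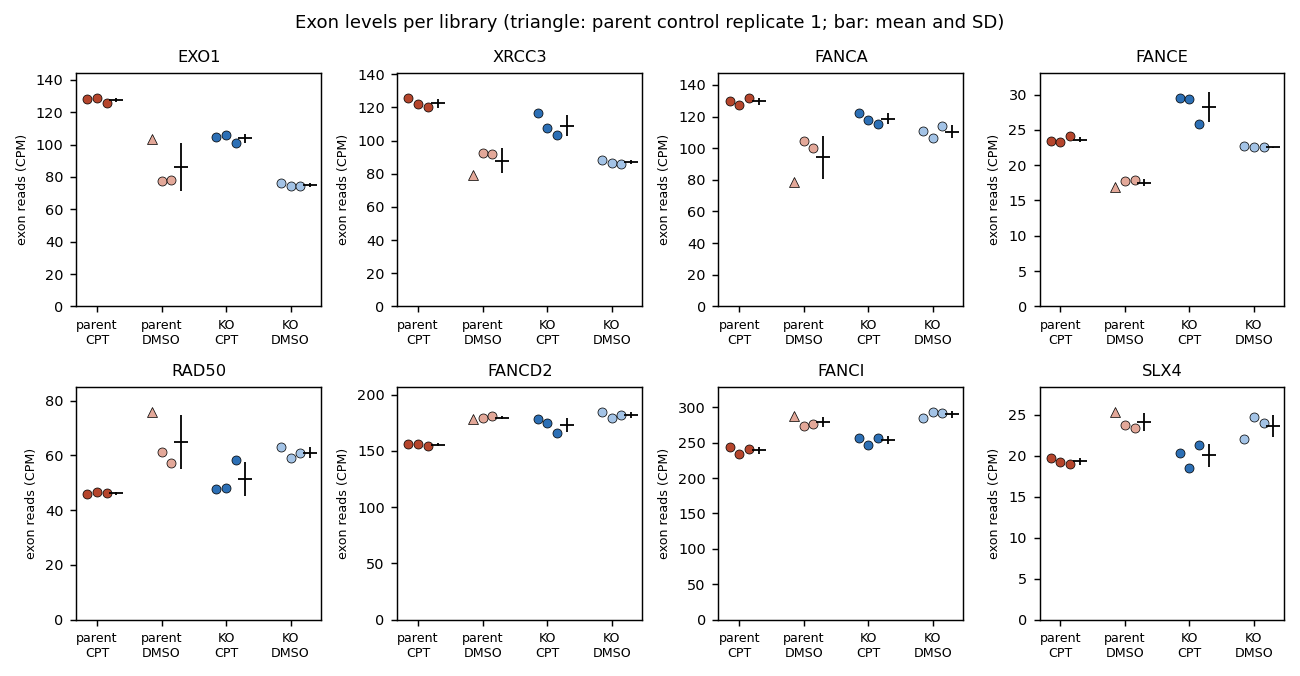
Exon levels in CPM (y axis, from 0) of 8 members in each library of the 4 groups, camptothecin (CPT) left of DMSO within each genotype. Points are libraries, triangles mark parent control replicate 1 and black marks give the mean and SD. EXO1, XRCC3, FANCA and FANCE are higher with camptothecin in parent cells, and RAD50, FANCD2, FANCI and SLX4 are lower.

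Promoters were compared because the replication genes around this set moved together. Of 27 genes expressed at the G1/S boundary, 22 were called higher in camptothecin-treated parent cells and 22 in knockout cells (median log2 change 0.38 in each), while of 27 G2/M genes 25 and 26 were lower (medians -1.08 and -1.06). Of all genes tested 16.8% were higher and 17.1% lower in parent cells, and 7.3% and 9.28% in knockout cells. G1/S genes carry sites for E2F factors, and the letters TTTCCCGC, TTTCGCGC, TTTGCCGC and TTTGGCGC were searched on both strands over the 300 bases around each RefSeq start (GRCh38.p14). Of the 39 members 33 had a promoter in the table, and 6 of these genes held such a match (18.2%), against 3.99% of all genes and 3.31% of all 35116 promoters. The 6 were EXO1 and FANCA, which rose, FANCC and FANCD2, which fell, and RMI1 and XRCC2, which were not called in parent cells. The letters CCAAT stood in 15 of the 33 (45.5%), against 39.7% of all genes. The promoters of the called members with a match, EXO1 and FANCA among the risers and FANCD2 and FANCC among those that fell, are shown 5′ to 3′ on the gene's strand, with the E2F match in capitals, written as its reverse complement where the match is on the opposite strand. They lie at chr1:241847954-241848253 (plus strand), chr16:89816598-89816897 (minus), chr3:10026187-10026486 (plus) and chr9:95317660-95317959 (minus).
EXO1: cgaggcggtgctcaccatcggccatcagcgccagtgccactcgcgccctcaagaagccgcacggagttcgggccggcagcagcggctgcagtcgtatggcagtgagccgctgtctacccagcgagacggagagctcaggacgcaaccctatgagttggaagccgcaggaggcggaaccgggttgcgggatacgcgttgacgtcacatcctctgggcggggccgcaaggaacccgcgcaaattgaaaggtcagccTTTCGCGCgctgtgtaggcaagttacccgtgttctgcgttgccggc
FANCA: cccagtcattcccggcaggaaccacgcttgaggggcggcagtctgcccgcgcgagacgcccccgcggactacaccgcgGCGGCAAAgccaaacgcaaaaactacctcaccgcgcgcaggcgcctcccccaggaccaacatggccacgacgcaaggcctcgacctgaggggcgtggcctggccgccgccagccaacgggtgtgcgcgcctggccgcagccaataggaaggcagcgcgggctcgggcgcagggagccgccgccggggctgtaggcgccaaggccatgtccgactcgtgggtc
FANCD2: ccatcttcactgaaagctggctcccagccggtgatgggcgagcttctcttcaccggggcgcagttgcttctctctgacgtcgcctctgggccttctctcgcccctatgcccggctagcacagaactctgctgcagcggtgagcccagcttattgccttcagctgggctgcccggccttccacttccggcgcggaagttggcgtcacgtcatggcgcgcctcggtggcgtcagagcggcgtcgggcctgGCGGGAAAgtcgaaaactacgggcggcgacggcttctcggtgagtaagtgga
FANCC: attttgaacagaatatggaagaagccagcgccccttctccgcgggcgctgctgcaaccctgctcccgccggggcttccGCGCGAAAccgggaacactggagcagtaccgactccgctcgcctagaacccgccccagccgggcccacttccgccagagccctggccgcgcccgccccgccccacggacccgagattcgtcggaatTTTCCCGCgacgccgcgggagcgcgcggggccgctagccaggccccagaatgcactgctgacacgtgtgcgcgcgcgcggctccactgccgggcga
In EXO1 the match lies just after the start site, with its first base at position 5, and in FANCD2 it spans the start, from -2. In FANCA it lies at -172, and FANCC has a match at -172 and a further one at -46. A match of letters stood on promoters of members called higher, called lower and not called on exon reads in parent cells. It is a description of the sequence only.

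With all 12 libraries in the fit, fewer members passed the test in SLFN11 knockout cells than in parent cells. On exon reads 6 of 38 rose (15.8%) and 2 fell (5.26%), against 7.30% and 9.28% of all genes tested and 10.5% and 17.1% of genes above 10 CPM. The 6 were EXO1, XRCC3, FANCE, FANCG, BRCA2 and RMI1, and the 2 were FANCI and SLX4. Apart from RMI1, all of them were also called in parent cells with the same sign. The median of the members was 0.05, and that of all genes 0.02. The counts moved with parent control replicate 1, although it belongs to neither group compared here. Without it 17 members were called higher and 4 lower in knockout cells, against 15 and 7 in parent cells. With only the groups compared in the fit, the counts were 12 and 4 in knockout cells, against 13 and 6 in parent cells. How far the counts of the genotypes stand apart thus depends on the libraries fitted. The shares of all genes called in these fits were not computed.

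EXO1 had 105, 106 and 101 CPM in camptothecin-treated knockout libraries, against 76.2, 74.5 and 74.3 CPM in DMSO-treated knockout libraries. The groups were tight and well apart, and EXO1 rose by 0.47 ± 0.09 (SE, edgeR adjusted p = 0.00106). XRCC3 had 116, 107 and 103 CPM treated, against 88.2, 86.2 and 86.1 CPM in controls, a rise of 0.33 ± 0.07 (SE, adjusted p = 0.00249). FANCE had 29.5, 29.4 and 25.9 CPM treated, against 22.7, 22.5 and 22.5 CPM in controls (0.32 ± 0.07 SE, adjusted p = 0.00326). In XRCC3 and FANCE the treated libraries were all higher, and replicate 3 was the closest to the controls. FANCG had 116, 116 and 106 CPM with camptothecin, against 92.4, 91.6 and 91.0 CPM with DMSO (0.30 ± 0.06 SE, adjusted p = 0.00124). BRCA2 had 111, 108 and 122 CPM, against 95.3, 98.0 and 92.6 CPM (0.25 ± 0.07 SE, adjusted p = 0.0179). In FANCG and BRCA2 too no library crossed over, and the calls of EXO1, XRCC3, FANCE and FANCG held in each alternative. Without replicate 1 or 3 of the knockout controls, or without replicate 3 of the treated knockout libraries, BRCA2 was no longer called (adjusted p = 0.0678, 0.0876 and 0.0759).

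RMI1, a partner of BLM (chromosome 9, 86595626 to 86618985), had 29.2, 26.0 and 45.1 CPM in treated knockout libraries, against 21.1, 23.1 and 20.1 CPM in controls. Its rise of 0.64 ± 0.20 (SE, edgeR adjusted p = 0.0479) rested on knockout camptothecin replicate 3, without which it was 0.36 (adjusted p = 0.104), and 10 of the 12 fits that left out a library did not call it. That library was also the one with the largest share of intron reads, and whether that share had a part in this value was not tested. FANCI fell to 257, 247 and 256 CPM in treated knockout libraries, against 284, 294 and 292 CPM in controls (log2 change -0.19 ± 0.05 SE, adjusted p = 0.0213). SLX4 had 20.4, 18.5 and 21.3 CPM treated, against 22.1, 24.7 and 24.0 CPM in controls (-0.24 ± 0.07 SE, adjusted p = 0.0399). In FANCI the groups lay well apart and in SLX4 they nearly touched, and leaving out single libraries ended the call of FANCI in 5 of 12 cases and that of SLX4 in 8. BRCA1 had 117, 121 and 122 CPM treated, against 112.9, 113 and 109.5 CPM in controls, with all treated libraries higher and a change of 0.10 that was not called (adjusted p = 0.424). FANCD2 stood at 178, 175 and 166 CPM treated, against 185, 179 and 182 CPM in controls, a change of -0.07 with a 95% interval of -0.18 to 0.04 (adjusted p = 0.417). The members called in parent cells alone were not thereby shown to differ between the genotypes, which is the subject of the next comparison.

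The difference of the responses, knockout minus parent, was tested directly in the same model. No member was called on exon reads by edgeR, against 6.32% of all genes tested and 11.7% of those above 10 CPM, and DESeq2 called none either. At an unadjusted p below 0.05 there were 5: FANCA at -0.36 (adjusted p = 0.0807), RAD52 at -0.30 (0.0796), BLM at 0.29 (0.156), MUS81 at -0.27 (0.179) and FAN1 at -0.22 (0.167). FANCA had 0.10 in knockout cells, where it was not called, against 0.46 in parent cells, where it was. RAD52 likewise had 0.03 in knockout cells, against 0.34 in parent cells. The 95% intervals leave room for unequal responses of some size: EXO1's difference was -0.10 with bounds of -0.35 and 0.16, BRCA1's 0.12 with -0.11 and 0.35, BRCA2's -0.08 with -0.28 and 0.13, FANCD2's 0.14 with -0.02 and 0.30, and FANCI's 0.03 with -0.13 and 0.19. Without parent control replicate 1 there were 6 calls, all negative: BARD1, PALB2, EXO1, RAD52, FANCA and UBE2T, from -0.30 for PALB2 to -0.19 for BARD1 (edgeR adjusted p between 0.00254 and 0.0495). The share of all genes called in that fit was not computed, so the 6 calls are not shown to be a trait of the members. Without parent control replicate 2 there was 1 call, also negative. The count of 0 thus depends on the libraries fitted, and most on parent control replicate 1.

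Between the genotypes under DMSO, knockout against parent, 2 members were higher and 4 lower on exon reads (5.26% and 10.5% of 38), against 8.26% and 7.44% of all genes tested, shares near those of the members. FANCE had 22.7, 22.5 and 22.5 CPM in knockout libraries, against 16.9, 17.7 and 17.9 CPM in parent libraries. The knockout libraries were nearly equal and all higher, and the log2 difference of 0.37 ± 0.07 (SE, edgeR adjusted p = 0.00124) was the only one of the 6 that was called in all alternatives. FANCC had 22.7, 21.4 and 22.6 CPM in knockout, against 16.2, 19 and 19.4 CPM in parent libraries (0.29 ± 0.09 SE, adjusted p = 0.0334), and it was not called when parent control replicate 1 or any 1 of the knockout controls was left out (adjusted p between 0.0642 and 0.113). BRCA2 had 95.3, 98.0 and 92.6 CPM in knockout, against 122, 107 and 106 CPM in parent libraries (-0.23 ± 0.07 SE, adjusted p = 0.029), and this call was lost when any 1 of the knockout controls was left out (adjusted p between 0.0649 and 0.12). RAD52 had 18.2, 19.9 and 19.9 CPM in knockout, against 22.1, 22.3 and 24.6 CPM in parent libraries (-0.25 ± 0.07 SE, adjusted p = 0.0205), which was not called without parent control replicate 3 or knockout control replicate 1 (adjusted p = 0.0682 and 0.115). In FANCC, BRCA2 and RAD52 the groups did not overlap. BRIP1 and RAD18 were lower as well, at -0.26 and -0.21 with adjusted p of 0.049 and 0.0435, and leaving out single libraries ended their calls in 10 and 8 of 12 cases. Without parent control replicate 1 BRIP1 was at -0.12 (adjusted p = 0.0792), while FANCL (-0.23) and UBE2T (0.16) were called (adjusted p = 0.0267 and 0.0289). With only the DMSO libraries in the fit, FANCE alone was called. The members with no call spread from -0.28 for XRCC2 to 0.23 for FANCA.

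Intron reads stem largely from RNA not yet spliced, and they gave a second reading of the same libraries. In the parent comparison 8 of 38 members rose on intron reads (21.1%) and 3 fell (7.89%), against 12.1% and 14.2% of 19908 genes. In knockout cells 14 rose (36.8%) and 2 fell (5.26%), against 7.85% and 9.05% of all genes and 11.0% and 13.9% of genes above 10 CPM. EXO1 introns had 125, 131 and 115 CPM in treated parent libraries, against 88.9, 87.6 and 91.1 CPM in controls, a rise of 0.48 ± 0.07 (SE, edgeR adjusted p = 1.64e-05). In knockout cells EXO1 introns had 127, 133 and 127 CPM treated, against 90.6, 83.7 and 93.1 CPM in controls (0.53 ± 0.07 SE, adjusted p = 1.02e-05). EXO1 was thus higher in exons and introns of both genotypes, and parent control replicate 1, high in its exons, was not high in its introns. XRCC2 introns rose as well, by 0.39 in parent cells (adjusted p = 0.000475) and by 0.37 in knockout cells (adjusted p = 0.00181), whereas its exon changes were not called. BRCA1 introns rose by 0.25 in parent cells (adjusted p = 0.00746) and by 0.23 in knockout cells (adjusted p = 0.0184), again without a call on exons, and BRCA2 introns rose by 0.22 and 0.21. Conversely FANCA, FANCE and RAD51D, which rose on exons in parent cells, had 0.05, -0.24 and 0.00 on introns, and none of these passed the test. Without parent control replicate 1 the 11 intron calls in parent cells remained, and BARD1 was called lower as well, at -0.19 (edgeR adjusted p = 0.038).

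The 14 intron rises in knockout cells were BRCA1, BRCA2, RBBP8, EXO1, XRCC2, RAD54B, BLM, RECQL, RMI1, FANCC, FANCG, FANCL, BRIP1 and RAD18, and for 4 of them the exon reads were called as well. RBBP8 introns had 157, 159 and 174 CPM treated, against 114, 122 and 113 CPM in controls (0.49 ± 0.07 SE, edgeR adjusted p = 2.2e-05). All treated libraries were far above the controls, while RBBP8 exons changed by 0.15 without a call. RAD18 and FANCC introns rose by 0.52 and 0.30, with exon changes of -0.07 and -0.25 that were not called. The smaller intron rises were the less stable ones: leaving out single libraries ended the call of RECQL in 8 of 12 cases, of FANCC in 7, of BRCA2 in 5, of BRCA1 in 4 and of BLM in 2. In RAD18, knockout camptothecin replicate 3 was far above the other treated libraries (185, against 132 and 127 CPM), and without it the rise was 0.33 (adjusted p = 0.0336). Over the 37 members tested on both read types, the median of the intron change minus the exon change was 0.09 in knockout cells and -0.04 in parent cells. Over 17351 genes the same medians were -0.02 and -0.01. Knockout camptothecin replicate 3 had the largest intron share. Without it 14 members were called on introns in knockout cells, against 16 with all libraries. The medians were not computed without it, and the part of its intron share in them was not tested.

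**Figure D3:**
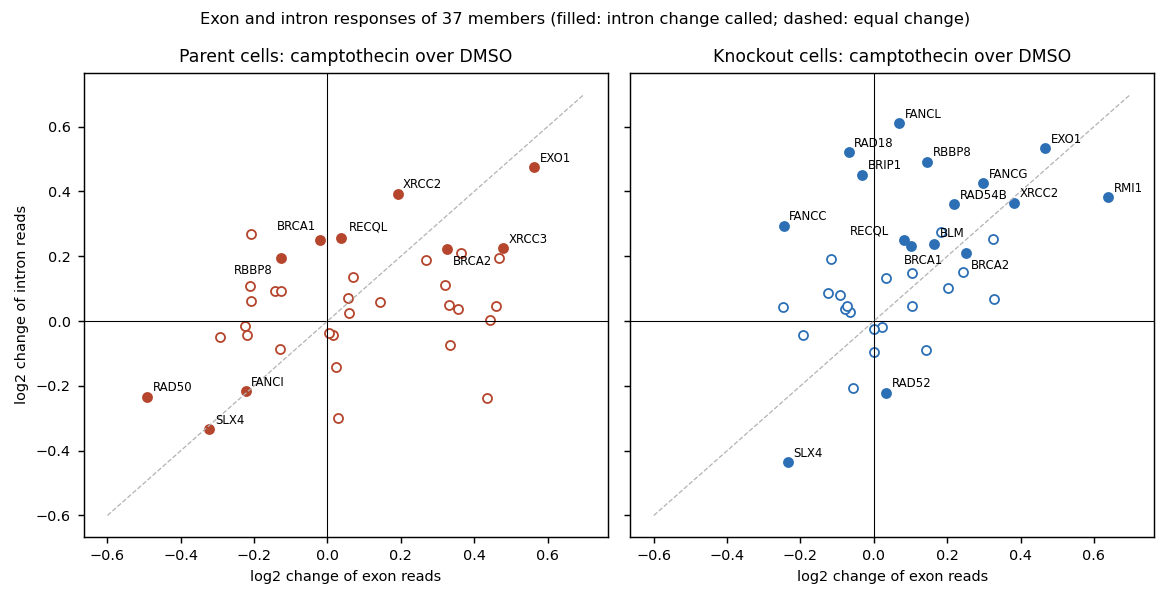
Log2 change of intron reads (y axis) against log2 change of exon reads (x axis) under camptothecin for the 37 members tested on both, in parent cells on the left and SLFN11 knockout cells on the right. Filled, named points have an intron change with an adjusted p below 0.05 and the dashed line marks equal change. FANCL, RAD18, BRIP1 and RBBP8 lie high above the line in knockout cells.

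The intron response differed between the genotypes for 4 members by the test of the difference (10.5% of 38), against 5.82% of all genes tested. For this test on introns the share among genes above 10 CPM is not given here. On exons it was 11.7%, against 6.32% of all genes, so a larger share among the members is not shown. RMI2 is among the 4, and its intron reads cannot be read as RMI2 RNA, as described below. BRIP1, RAD54B and RMI2 are genes of 100 kb or more. Of all genes of that length 8.99% were called higher and 1.58% lower, against 2 and 1 of 7 members. BRIP1, a helicase that binds BRCA1 (chromosome 17, 59758627 to 59940882), had 219, 200.5 and 236 CPM of intron reads in treated knockout libraries, against 159.6, 162 and 157 CPM in knockout controls. In parent cells it had 194, 179.9 and 188 CPM treated, against 193, 184 and 202 CPM in controls. The knockout groups were apart and the parent groups overlapped, and the difference of responses was 0.49 ± 0.10 (SE, edgeR adjusted p = 0.00322). FANCL, the ubiquitin ligase subunit of the core complex (chromosome 2, 58386378 to 58468507), had 160.5, 139.8 and 183 CPM in treated knockout libraries, against 101, 107 and 108 CPM in knockout controls. Its parent libraries had 160.1, 149 and 161 CPM treated, against 138, 148 and 141.9 CPM in controls. The knockout controls were the lowest of the 4 groups and the treated groups overlapped, with a difference of 0.47 ± 0.11 (SE, adjusted p = 0.0131). Under DMSO alone BRIP1 and FANCL introns were lower in knockout than in parent cells, by -0.27 and -0.44 (adjusted p = 0.00865 and 0.000492), and this control level enters the difference of responses. RAD54B, a motor protein related to RAD54L, had 0.34 ± 0.10 (SE, adjusted p = 0.0391), which 8 of the 12 fits without a library did not call. RAD51C and UBE2T introns were also lower in DMSO-treated knockout cells, by -0.30 and -0.45 (adjusted p = 0.0131 and 0.0113; for UBE2T 0.0648 without parent control replicate 1), so that 4 members were lower and RMI2 higher there (10.5% and 2.63%, against 6.43% and 8.17% of all genes).

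RMI2 gave the largest intron difference of the set, in the opposite direction. Its row (chromosome 16, 11343476 to 11445619) had 23.4, 25.8 and 25.1 CPM of intron reads in treated parent libraries, against 7.28, 8.30 and 7.51 CPM in parent controls. Knockout libraries had 20.7, 22.2 and 17.1 CPM treated, against 17.8, 19 and 19.9 CPM in controls. The parent controls stood alone at a low level, and the other 3 groups came near each other. The parent response was 1.69 ± 0.12 (SE, edgeR adjusted p = 5.44e-10), the knockout response 0.08 (adjusted p = 0.702) and the difference -1.61 ± 0.16 (SE, adjusted p = 2.22e-06). Intron reads of RMI2 cannot be read as RMI2 RNA, since its exons had almost no reads and SOCS1, a suppressor of cytokine signalling, lies inside the span of this row. With intron reads unique to RMI2 the parent response was 1.23 and the difference -1.23 (adjusted p = 1.49e-06 and 0.000812).

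**Figure D4:**
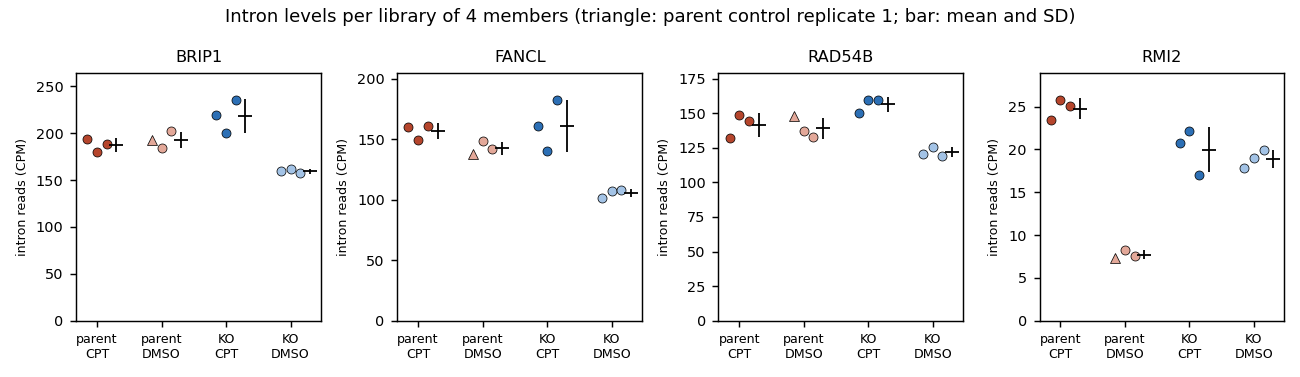
Intron reads in CPM (y axis, from 0) of BRIP1, FANCL, RAD54B and RMI2 in each library of the 4 groups, camptothecin (CPT) left of DMSO within each genotype. Points are libraries, triangles mark parent control replicate 1 and black marks give the mean and SD. BRIP1, FANCL and RAD54B are lowest in knockout DMSO libraries, and RMI2 is lowest in parent DMSO libraries.

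The exon response of the members went with the length of the gene. Of 9 members under 30 kb, 5 rose and none fell in parent cells, with a median of 0.32, and FANCG, FANCE, XRCC3, RAD51D and MUS81 were those 5. Of 23 members of 30 to 100 kb, 7 rose and 4 fell (median 0.04), and of 6 members of 100 kb or more, none rose and 3 fell (WRN, FANCC and RAD18, median -0.22 over the 6). All genes tested had the same order, with medians of 0.07, 0 and -0.28 in the 3 length classes. Of all genes 17.6% rose and 10.5% fell under 30 kb, 19.9% and 21.7% did at 30 to 100 kb, and 6.56% and 45.5% at 100 kb or more, so the falls among the longest members were near the share of all such genes. In knockout cells the members' medians were 0.24, 0.07 and -0.05, and those of all genes 0.06, 0.00 and -0.17. Over the 38 members the Spearman correlation of exon change and gene length was -0.49 in parent and -0.29 in knockout cells, given as a description, since these genes share the same libraries. Intron changes did not follow that order: the correlations were 0.04 in parent and 0.24 in knockout cells. The longest members were higher on introns in knockout cells, where the median of 7 members of 100 kb or more was 0.36, against 0.05 for all such genes, and in parent cells it was 0.03, against -0.04.

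**Figure D5:**
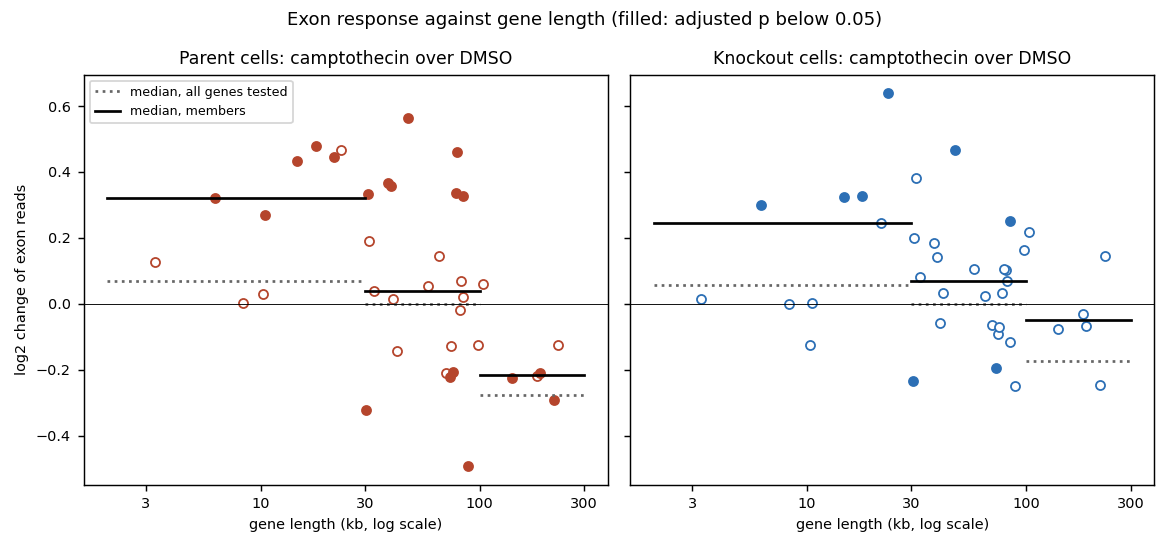
Log2 change of exon reads under camptothecin (y axis) against gene length in kb (x axis, log scale) for the 38 members tested, in parent cells on the left and SLFN11 knockout cells on the right. Filled points have an adjusted p below 0.05, solid lines are the medians of the members and dotted lines the medians of all genes tested in 3 length classes. In parent cells the member medians step down, 0.32, 0.04 and -0.22.

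Other genes of the same pathways were taken from a list for comparison on exon reads. Of 43 further recombination and Fanconi anemia genes tested, 15 rose and 5 fell in parent cells (34.9% and 11.6%, median 0.07). In knockout cells 8 rose and 4 fell (18.6% and 9.3%, median 0.07). Of all genes tested 16.8% rose and 17.1% fell in parent cells, and 7.3% and 9.28% in knockout cells. The largest changes there were falls: BRE, a subunit of the BRCA1-A complex, fell by 1.38 in parent and by 0.96 in knockout cells, SPIDR, a scaffold of recombination, by 1.15 and 0.97, and RAD51B, a recombination mediator, by 0.89 and 0.69 on the log2 scale. A further list of 20 genes joined end joining and 53BP1 pathway genes with genes of single-strand break and topoisomerase lesion repair, such as XRCC1 and TDP1. Of these 4 rose and 8 fell in parent cells (20% and 40%), and 3 and 6 in knockout cells (15% and 30%). Among these XRCC4, a ligase partner of end joining, fell by 1.47 in parent and by 0.95 in knockout cells. TDP1, from the lesion repair part of the list, fell by 0.83 and 0.48. Neither list was set against genes of like length. Of all genes of 100 kb or more 45.5% fell in parent and 32.9% in knockout cells, so these falls are not shown to belong to the pathways. The T lymphoblast markers moved as well, with 13 of 16 lower in parent and 8 of 16 in knockout cells (medians -0.44 and -0.20), and the part of this shift and of the cell cycle genes in the values of the members was not tested. Summed over the 27 G2/M genes, levels were 3077 to 3188 CPM in treated parent, 5805 to 7276 CPM in parent control, 3001 to 3318 CPM in treated knockout and 6025 to 6144 CPM in knockout control libraries.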

How the data were processed

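RNA-seq libraries (12) were read from the authors' deposited tables, which per the file headers give whole-number counts of reads over genes, exons and introns, and over the parts of each that no other gene shares. Counts above 6 digits are rounded by the authors. The deposited TPM values were not used. Per the submitters' processing notes, the tools were STAR 2.5.4a, Trim Galore 0.6.2, Picard 2.9.2 and Trimmomatic 0.39, with hg19 as the build. Which program counted the reads, with which annotation, and whether it used strand is not given in the sources used here. The file names mark removal of duplicates, which lowers counts of abundant transcripts. Positions in the tables lie 1 base lower than 1-based positions at both ends (37 of 37 mitochondrial genes compared), and were raised by 1.

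Exon and intron counts were fitted separately with edgeR 4.0.16 (R 4.3.3): filterByExpr, TMM, a robust quasi-likelihood fit and a mean per group over all 12 libraries. A call is a Benjamini-Hochberg adjusted p below 0.05 over all genes tested. CPM are scaled to the TMM-adjusted library size and printed with the SD of 3 libraries, and an SE is the log2 change divided by the root of the F statistic. The biological coefficient of variation was 11.7% on exons and 10.5% on introns. The procedure was run on simulated counts drawn with the same dispersion for all genes. No simulated library deviated as parent control replicate 1 does, so that run does not cover its effect. Counts without molecular identifiers limit precision to counting error at best.

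The members, lists and tests were chosen with earlier results of these data known. Full values are given for the called members among the 6 largest rises and 6 largest falls of a comparison and for BRCA1, BRCA2, FANCD2, FANCI and EXO1, with up to 3 genes of each other list. Other members and list genes were named after their values were seen. Alternatives were DESeq2 1.42.0, DESeq2 size factors, library size alone, no filter, other read types, fewer groups, a replicate block and leaving out each library.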

Additional observations from a re-analysis of the deposited data

Results flagged for a closer look

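The camptothecin response on intron reads differed between the genotypes, knockout minus parent, for 4 of 38 members by the test of the difference in edgeR, against 5.82% of all genes tested. The share among genes above 10 CPM is not given here, so a larger share among the members is not shown. The log2 difference was 0.49 for BRIP1 (adjusted p = 0.00322), 0.47 for FANCL (adjusted p = 0.0131), 0.34 for RAD54B (adjusted p = 0.0391) and -1.61 for RMI2 (adjusted p = 2.22e-06). BRIP1 and RMI2 were called in each alternative that could be fitted, FANCL not without parent camptothecin replicate 2 or knockout control replicate 1, and RAD54B not in 10 of 18 alternatives. With intron reads unique to the gene the differences were 0.49 for BRIP1, 0.47 for FANCL, 0.40 for RAD54B and -1.23 for RMI2.

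In BARD1 and FANCE all treated knockout libraries were above all knockout controls on intron reads, and all treated parent libraries were below all parent controls. BARD1 had 235.8, 236.5 and 284 CPM in treated knockout libraries, against 230.2, 217 and 215 CPM in knockout controls, and 199.8, 202 and 203 CPM in treated parent libraries, against 209, 232 and 227 CPM in parent controls. FANCE had 18.7, 20.6 and 20.7 CPM in treated knockout libraries, against 16.8, 17.7 and 15.9 CPM in knockout controls, and 15.6, 12.8 and 15.1 CPM in treated parent libraries, against 16.3, 16.6 and 18.6 CPM in parent controls. The test of the difference gave 0.34 for BARD1 and 0.49 for FANCE, at adjusted p of 0.0626 and 0.071, and called neither. On intron reads neither gene was called in parent cells (edgeR adjusted p = 0.169 and 0.124) or in knockout cells (0.0795 and 0.132). They were found by looking through all members, and the share of all genes with this pattern was not counted.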

How the results depend on the processing

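Members called on exon reads under camptothecin in parent cells (12 higher, 7 lower) became 19 and 2 with library size alone, and 4 were lower with reads over the whole gene. In knockout cells (6 and 2) library size alone gave 17 and 0, a fit of the knockout libraries 12 and 4 (only the groups compared); 11 were higher with reads over the whole gene, and 1 lower with no filter. For the difference of responses (0 and 0) 1 was higher with library size alone, 3 higher and 1 lower with reads over the whole gene, and 1 lower with no filter. For DMSO-treated knockout against parent cells (2 and 4) library size alone gave 6 and 0, a fit of only the groups compared 1 and 0, 8 were lower with no filter and 7 lower with reads over the whole gene. On intron reads library size alone called 17 members in parent cells, against 11, and DESeq2 called 7 for the difference, against 4. The cause of these shifts was not tested. Library size alone moved the median of all genes to 0.14 in parent cells, 0.17 in knockout cells and 0.08 under DMSO, and the share of higher calls to 67.2%, 78.6% and 72.7%, against 49.6%, 44% and 52.6% with TMM; for the difference it was 46.3%, against 29.2%. It reversed no called member. With reads over the whole gene RAD18 turned to 0.031 in parent cells (adjusted p = 0.83) and BRIP1 to 0.21 in knockout cells (adjusted p = 0.0238).

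Leaving out single libraries gave 11 to 15 members higher and 5 to 8 lower in parent cells, 4 to 17 and 0 to 4 in knockout cells, 0 to 0 and 0 to 6 for the difference, and 1 to 3 and 0 to 11 under DMSO, the 11 without parent control replicate 2. On introns it called 3 to 13 in parent cells, 9 to 19 in knockout cells, 2 to 8 for the difference and 4 to 8 under DMSO. The lowest intron counts came without parent camptothecin replicate 2 in parent cells (3), without knockout control replicate 3 in knockout cells (9) and without parent camptothecin replicate 2 or knockout control replicate 1 for the difference (2), and the highest for the difference came without parent control replicate 1 (8). The difference needs all 4 groups, so a fit of only the groups compared gives no separate value for it.

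No pairing by the replicate numbers of the labels was seen: deviations from the group mean correlated between -0.032 and 0.032 for same-numbered libraries. Treated parent and treated knockout libraries were not compared in this way. Whether same-numbered libraries shared a culture or batch was not tested. With the replicate block the fit called 1 member lower in knockout cells, against 2, and ended the call of SLX4 there (adjusted p = 0.0581). Under DMSO it ended the exon calls of BRIP1 and RAD18 (0.0611 and 0.0591) and called RAD54B (0.0461). On introns it ended the calls of SLX4 in parent cells (0.0506) and of RAD52 in knockout cells (0.0525).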
